A study of Mus musculus with 4 samples.

Results

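The genes that write, erase and read histone acetylation were examined in mouse macrophages: 13 acetyltransferases, 11 zinc-dependent deacetylases, 6 sirtuins, 3 corepressors that carry deacetylases, and 13 bromodomain proteins or partners that read the mark. These 46 genes were taken by symbol, as a list of known function, from the 16403 gene IDs listed in at least one library. All 46 were listed in every library. The cells were thioglycolate-elicited peritoneal macrophages from young adult C57BL/6 mice, which were either wild-type or carried floxed Trim24 alleles (the gene is also called TIF1a) together with a LysM-Cre transgene. LysM-Cre acts in macrophages, monocytes and granulocytes, so the deletion was directed to myeloid cells, and the controls of the study were wild-type littermates. How many mice gave each library is not given in the sources used here. Each genotype gave 1 untreated library and 1 that had received IL-4 (20 ng/mL) for 6 h, so the 4 groups hold 1 library each and nothing measures the spread between mice or cultures. In what follows, "called" means an adjusted p under 0.05 in an exact test on the reads of 2 libraries and a fold above 1.5, and such a call compares those libraries, not the conditions.

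Acetyltransferases such as the CREB-binding protein CBP (encoded by Crebbp) and p300 (Ep300) move an acetyl group onto lysines of histone tails and of transcription factors, which weakens the hold of histones on DNA and makes docking sites. Deacetylases remove the group, the zinc-dependent HDACs often within corepressor complexes and the sirtuins at the cost of NAD, and proteins with a bromodomain bind the acetylated lysine and bring in remodelling or transcription factors. The study was about the acetylation of Stat6, the transcription factor that IL-4 activates in macrophages, by CBP in the presence of the E3 ligase Trim24. The question asked of these libraries was whether the transcripts of this enzyme family differed with IL-4 or with loss of Trim24.

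The libraries held between 11026033 and 11250099 expected reads, of which the 46 genes took 0.299% in the untreated wild-type library, 0.262% in the wild-type IL-4 library, 0.306% in the untreated knockout library and 0.297% in the knockout IL-4 library. Trim24 itself, the check of the genotype labels, was at 2.55 and 1.48 FPKM (reads per unit of transcript length and of library depth) in the untreated and IL-4 wild-type libraries, against 0.06 and 0.14 FPKM in the knockout. Summed levels of 6 macrophage markers lay between 3550 and 3950 FPKM. Those of the 4 neutrophil markers lay between 5.15 and 8.86 FPKM, with Ly6g and S100a9 at 0 in every library, those of the 4 T cell markers between 0.86 and 1.72 FPKM and those of the 3 B cell markers between 2.09 and 4.3 FPKM. The 3 fibroblast markers summed to between 15.1 and 29.2 FPKM, and the sums for eosinophil, mast cell, mesothelial, dendritic and NK cell markers were 5.83 FPKM or less. The part of these minor cells in the values below was not tested. In such bulk samples, fewer cells of a type and less RNA per cell cannot be told apart.

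Most of the machinery was present at middling levels. On the FPKM scale, which is per length, 44 of the 46 genes reached 1 FPKM on average, and the median of the 46 averages was 11.3 FPKM, against 10.5 FPKM over the 10532 genes of the series that reached it. Sirt2, a sirtuin of cytoplasm and nucleus that deacetylates tubulin and histone H4, was the most abundant, at 140.4 and 144.8 FPKM in the untreated and IL-4 wild-type libraries and 131.9 and 128.1 FPKM in the knockout ones. Brd2, a reader of the BET family, came next with 63.8, 62.8, 64.8 and 67.6 FPKM in the same order, although 9.8% of its exon bases overlap another gene. These 2 genes varied little between the libraries, and none of their pairwise ratios was called.

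Among the acetyltransferases the mean level ran from 2.02 FPKM for Kat6b, the catalytic subunit of a MOZ/MORF complex, to 27.1 FPKM for Ncoa3, a steroid receptor coactivator. The zinc-dependent deacetylases ran from Hdac11 to Hdac1, a class I enzyme of the Sin3, NuRD and CoREST complexes, which had a mean of 23.6 FPKM, and their median of 4.56 FPKM was the lowest of the 5 classes. Hdac11 had 2, 1, 2 and 1 reads, under the 3 reads taken as the floor of detection (0.267 to 0.272 CPM, the count scaled to the library total), so no ratio is given for it. Sirt5, a mitochondrial sirtuin that removes succinyl and malonyl groups, was the lowest sirtuin with a mean of 1.43 FPKM from 19 to 24 reads per library. The corepressors lay close together, from Sin3a with a mean of 11.43 FPKM to Ncor1, the scaffold that holds Hdac3, with 19.9 FPKM. The readers ran from Atad2, a bromodomain ATPase, with a mean of 4.89 FPKM up to Brd2.

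**Figure D1:**
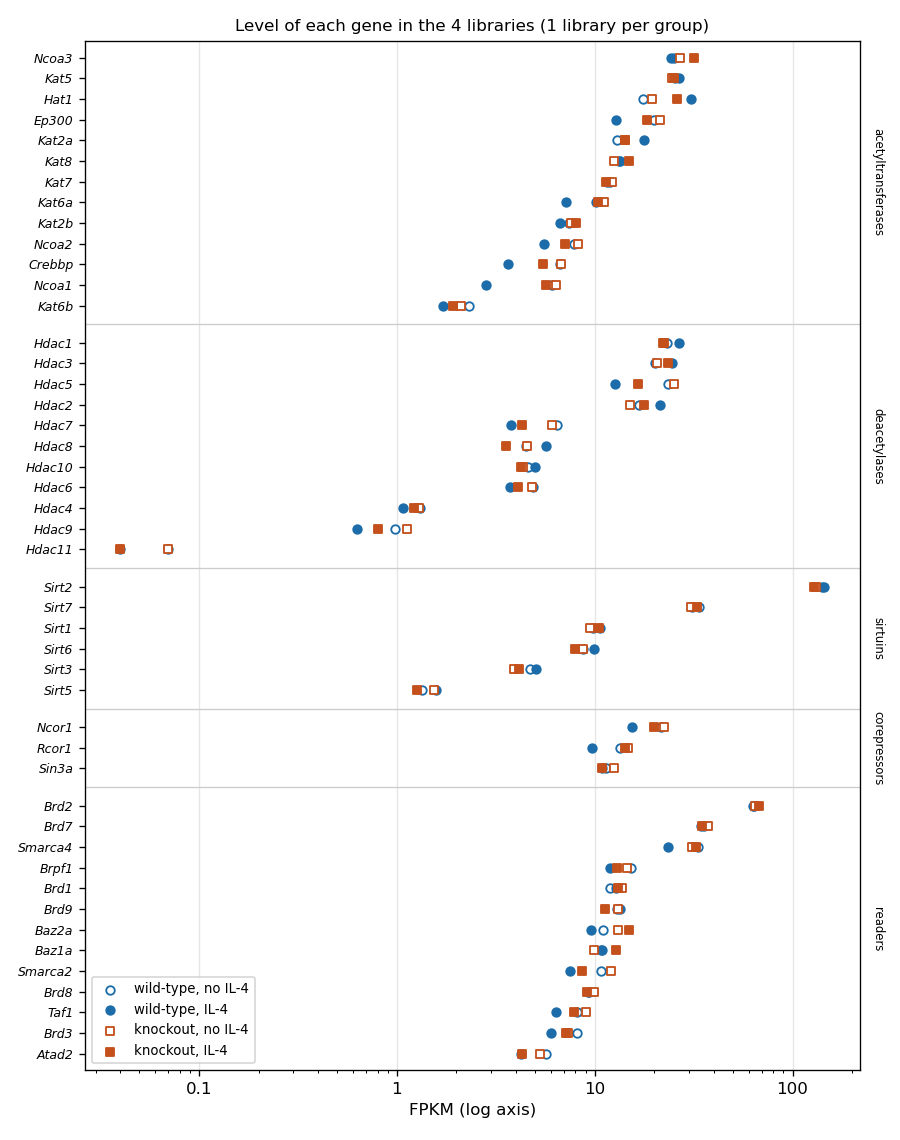
Level of each of the 46 genes in FPKM on a log axis, 1 point per library, ordered by mean level within its class; circles are wild-type and squares knockout, open untreated and filled IL-4. The points of a gene lie close together for most genes, and Hdac11 lies apart at 1 or 2 reads. The filled circle stands to the left of the other points in a number of genes. Among them are Ncoa1 (2.82 FPKM), Crebbp (3.64 FPKM), Ep300 (12.8 FPKM), Smarca4 (23.6 FPKM) and Ncor1 (15.5 FPKM).

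Many of these transcripts are long, and the wild-type IL-4 library had less signal from long transcripts than the other 3. The median transcript of the 46 genes had 4366 bases, longer than 78.6% of the genes that averaged 1 FPKM or more. The curve fitted over all genes gave a log2 ratio of IL-4 over no IL-4 in the wild-type of 0.11 at 1500 bases and -0.40 at 7500 bases. In the knockout pair the same curve gave 0.04 and -0.10. Between the IL-4 libraries, knockout over wild-type, it gave -0.11 and 0.34. Before the curve was subtracted, 17 of the 20 genes with at least 5000 bases were lower with IL-4 in the wild-type, with a median log2 ratio of -0.42, while 9 of the 26 shorter genes were lower and their median was 0.06. After subtraction 12 of the 20 long and 12 of the 26 short genes were lower, and the medians were -0.03 and 0.03. Over the 46 genes, Spearman's correlation of this log2 ratio with length was -0.68 before and -0.11 after subtraction, and that of the knockout over wild-type ratio with IL-4 was 0.77 before and 0.24 after. These coefficients describe 46 genes read from the same libraries and carry no test. Unless stated otherwise, log2 ratios below are of FPKM + 0.1 with the curve subtracted, and errors are standard errors that cover counting only. Whether the trend arose in the cells or in the library cannot be told apart with 1 library per group.

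**Figure D2:**
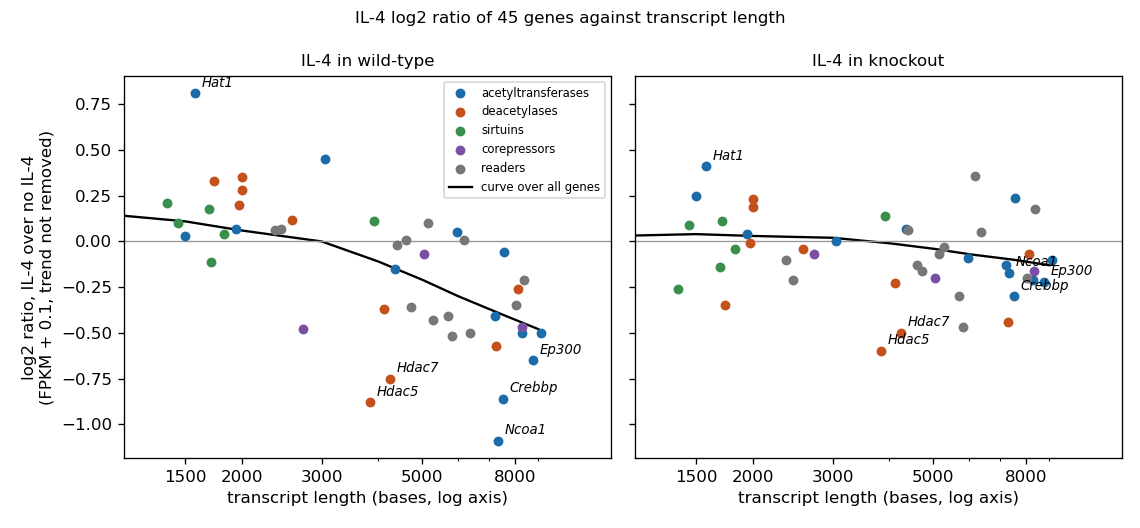
Log2 ratio of FPKM + 0.1, IL-4 over no IL-4, before removal of the length trend, against transcript length in bases (log axis) for the 45 genes over the floor, wild-type on the left and knockout on the right; colours mark the class and the line is the curve over all genes. In the wild-type most genes of at least 5000 bases lie below 0 along the curve, which reaches -0.40 at 7500 bases, and in the knockout the curve at that length is at -0.10.

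The calls with IL-4 in the family stand beside the shares over all genes, and the family was not tested as a set. In the wild-type, 1 of the 46 was called higher (Hat1) and 3 were called lower, against a background of 5.07% higher and 5.04% lower over all 15593 genes tested. The knockout pair had 0 called higher and 1 lower, against 5.09% and 3.94% of 15738 genes. Among genes averaging 1 FPKM or more, 663 of 10519 were called higher and 662 lower in the wild-type pair. In the knockout pair these were 664 and 521 of 10524. Over the 46 genes the log2 ratio had a median of -0.00 for the wild-type pair and -0.05 for the knockout pair, beside 0.01 in each for all genes averaging 1 FPKM or more. At an adjusted p under 0.05 with no minimum fold, 17 of the 46 differed in the wild-type pair, against 27.5% of all genes tested, and 8 in the knockout pair, against 24.1%. For the exact and z tests, such any-fold shares, here and below, are over all genes with a read, among which scarce genes are more common. Of the 46 genes, 44 averaged 1 FPKM or more, against 10532 of the 16403 gene IDs. More reads let a smaller fold pass the p. The genes called were 2 acetyltransferases, Hat1 and Ncoa1, and 2 class IIa deacetylases, Hdac5 and Hdac7.

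Hdac5 was the one gene of the family called in both genotypes. The share of all genes called in both is not given here, so this overlap is not read as a trait of the family. Hdac5 encodes a class IIa deacetylase, a group with weak enzyme activity of its own that shuttles between nucleus and cytoplasm and represses MEF2 transcription factors. It lies on chromosome 11 at 102195747 to 102230172 of GRCm38, and its level was 23.5 FPKM (1005 reads) in the untreated wild-type library, 12.7 FPKM (551 reads) with IL-4, 25.1 FPKM (1068 reads) in the untreated knockout library and 16.5 FPKM (701 reads) with IL-4. Both IL-4 libraries lay below both untreated ones. The log2 ratio in the wild-type was -0.79 ± 0.08 (adjusted p = 1.4e-25, exact binomial test, as for the adjusted p-values below unless another test is named). The knockout pair gave -0.60 ± 0.07 (adjusted p = 1.1e-16), just past the threshold of 0.585. The responses of the 2 genotypes differed by 0.21 ± 0.10, which was not called (adjusted p = 0.4, two-sided z test on log2 counts).

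Hdac7, a second class IIa deacetylase, on chromosome 15 at 97792661 to 97844502, had 6.43 and 3.79 FPKM in the untreated and IL-4 wild-type libraries and 6.11 and 4.28 FPKM in the knockout ones. Again both IL-4 libraries were below both untreated ones. Its log2 ratio of -0.62 ± 0.13 was called for the wild-type (adjusted p = 5e-05), and -0.49 ± 0.13 for the knockout passed the p but not the fold (adjusted p = 0.00068). The other members of class IIa were scarce: Hdac4 had between 1.08 and 1.31 FPKM and Hdac9 between 0.63 and 1.12 FPKM, and neither was called in any pair. Hdac9 also had fewer reads in both IL-4 libraries (47 wild-type, 63 knockout) than in both untreated ones (84 and 98). Its log2 ratios with IL-4 were -0.18 ± 0.26 for the wild-type and -0.34 ± 0.23 for the knockout. These are ratios of FPKM + 0.1. The additive model of counts described below gave -0.50 for IL-4. In class I, Hdac1 was at 23.2 and 26.7 FPKM in the untreated and IL-4 wild-type libraries and at 22.3 and 22.2 FPKM in the knockout, and Hdac1, Hdac2 and Hdac3 were called in no pair. Hdac8, the class I enzyme outside the large corepressor complexes, had 4.49, 5.65, 4.56 and 3.55 FPKM from 68 to 110 reads, and its log2 ratio with IL-4 was 0.24 ± 0.21 for the wild-type and -0.39 ± 0.23 for the knockout, neither of them called.

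Hat1, which acetylates newly made histone H4 before it is laid into chromatin, was the gene called higher. It lies on chromosome 2 at 71389260 to 71441622, and had 17.5 FPKM (303 reads) without and 30.8 FPKM (544 reads) with IL-4 in the wild-type libraries, and 19.6 FPKM (338 reads) without and 26 FPKM (449 reads) with IL-4 in the knockout ones. Both IL-4 libraries lay above both untreated ones. The wild-type log2 ratio was 0.71 ± 0.10 (adjusted p = 3.5e-11). That of the knockout, 0.37 ± 0.10, was under the fold threshold (adjusted p = 0.0022). The responses differed by -0.34 ± 0.15, which was not called (adjusted p = 0.25, z test).

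Ncoa1, also called SRC-1, a coactivator of nuclear receptors that binds CBP and p300, was lower in 1 library only. It lies on chromosome 12 at 4247362 to 4477206 and had 6.11 FPKM (502 reads) in the untreated wild-type library, 2.82 FPKM (236 reads) in the wild-type IL-4 library, 6.41 FPKM (526 reads) in the untreated knockout library and 5.67 FPKM (465 reads) in the knockout IL-4 library. In CPM, the wild-type IL-4 value was 21 (95% Wilson interval 18.5 to 23.8) and the other 3 lay between 42.2 and 47.7. Its transcript has 7346 bases, a length at which that library was low over all genes, so the log2 ratio in the wild-type was -1.09 before and -0.70 ± 0.11 after removal of the trend (adjusted p = 9.6e-10). In the knockout it was -0.08 ± 0.09, which was not called. Its relative Ncoa3 had 25.1, 24.2, 27.1 and 31.9 FPKM, and log2 ratios of 0.35 ± 0.04 (wild-type) and 0.34 ± 0.04 (knockout), which passed the p but not the fold, while before removal of the trend the wild-type ratio was -0.06.

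Crebbp and Ep300, the acetyltransferases closest to the study's question, were not called with IL-4 once the length trend was removed. Crebbp was at 6.68 FPKM (561 reads) without and 3.64 FPKM (312 reads) with IL-4 in the wild-type libraries, and at 6.77 FPKM (568 reads) and 5.49 FPKM (460 reads) in the knockout. Its log2 ratio in the wild-type was -0.86 before removal, past both thresholds, and -0.46 ± 0.10 after (1.37-fold, adjusted p = 2.2e-05). In the knockout it was -0.30 before and -0.19 ± 0.09 after (adjusted p = 0.1). Ep300 was at 20.0, 12.8, 21.4 and 18.4 FPKM in the untreated wild-type, IL-4 wild-type, untreated knockout and IL-4 knockout libraries, and its ratio moved from -0.65 to -0.18 ± 0.05 (wild-type) and from -0.22 to -0.09 ± 0.05 (knockout). Without removal, 5 of the 46 genes were called lower in the wild-type, Crebbp and Ep300 added to Ncoa1, Hdac5 and Hdac7, against a background of 7.55%, and 1 higher against 4.78%. In the knockout the counts without removal were 0 higher against 5.1% and 1 lower against 4.02%.

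The sirtuins, corepressors and readers held no call with IL-4 in either genotype. The log2 ratios of the 6 sirtuins spanned -0.20 to 0.20 in the wild-type and -0.29 to 0.15 in the knockout. Of the corepressors, Ncor1 was at 21.6, 15.5, 22.3 and 20.0 FPKM with ratios of -0.03 and -0.04, and Sin3a was at 11.4, 10.9, 12.5 and 10.9 FPKM with ratios of 0.14 and -0.16. Rcor1, the CoREST scaffold of Hdac1 and Hdac2, named after its values were seen, was at 13.5, 9.64, 14.8 and 14.2 FPKM, and its wild-type ratio of -0.50 ± 0.11 passed the p but not the fold (1.42-fold, adjusted p = 3.5e-05), while the knockout ratio was -0.09 ± 0.10. The 13 readers spanned -0.23 to 0.33 and -0.41 to 0.44 in these pairs. Baz2a, a subunit of a nucleolar remodelling complex, had 11, 9.54, 13.1 and 14.9 FPKM, and ratios of 0.24 ± 0.07 (-0.21 before removal of the trend) and 0.30 ± 0.06 (0.18 before), under the fold threshold. Atad2 had 5.70, 4.26, 5.30 and 4.28 FPKM, with ratios of -0.14 and -0.24.

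**Figure D3:**
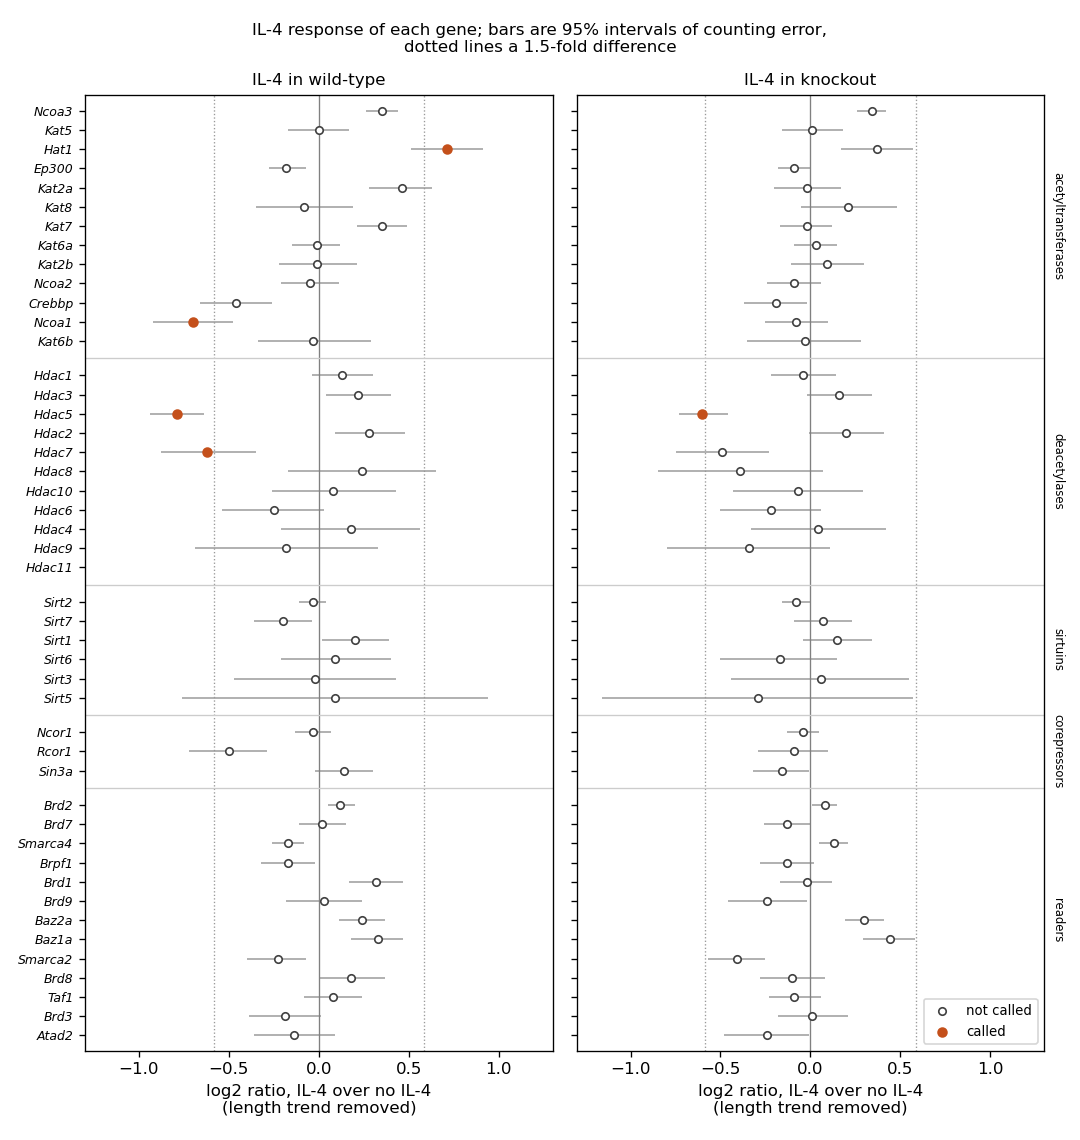
Log2 ratio, IL-4 over no IL-4, with the length trend removed, for each gene in the wild-type (left) and the knockout (right); bars are 95% intervals of counting error, dotted lines mark a fold of 1.5, filled points were called, and Hdac11 has no ratio. In the wild-type Hat1 (0.71) stands to the right of the dotted line and Ncoa1 (-0.70), Hdac5 (-0.79) and Hdac7 (-0.62) to the left, and in the knockout Hdac5 (-0.60) is the one filled point.

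The stretches before the transcription starts of the 3 genes with the largest log2 ratios with IL-4 are shown because IL-4 acts through Stat6, which binds TTC and GAA separated by 4 bases of any kind. Each is the 250 bases upstream of the RefSeq start in GRCm38.p6, read 5′ to 3′ on the gene's own strand, with capitals marking a motif found by search. The start that the promoter table gives for Ncoa1 lies just inside the outer boundary of the gene stated above, so its stretch overlaps that boundary. The 3 windows are chr11:102230173-102230422 on the minus strand for Hdac5, chr2:71389010-71389259 on the plus strand for Hat1 and chr12:4477183-4477432 on the minus strand for Ncoa1.
Hdac5: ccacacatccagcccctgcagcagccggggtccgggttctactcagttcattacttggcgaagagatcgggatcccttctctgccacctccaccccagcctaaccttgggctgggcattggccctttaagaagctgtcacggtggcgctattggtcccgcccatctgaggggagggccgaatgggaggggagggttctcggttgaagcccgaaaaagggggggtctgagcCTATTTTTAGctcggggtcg
Hat1: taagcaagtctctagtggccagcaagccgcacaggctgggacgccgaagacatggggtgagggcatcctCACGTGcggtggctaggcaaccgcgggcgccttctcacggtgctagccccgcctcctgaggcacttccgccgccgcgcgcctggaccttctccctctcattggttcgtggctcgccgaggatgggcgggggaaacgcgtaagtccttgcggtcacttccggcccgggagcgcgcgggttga
Ncoa1: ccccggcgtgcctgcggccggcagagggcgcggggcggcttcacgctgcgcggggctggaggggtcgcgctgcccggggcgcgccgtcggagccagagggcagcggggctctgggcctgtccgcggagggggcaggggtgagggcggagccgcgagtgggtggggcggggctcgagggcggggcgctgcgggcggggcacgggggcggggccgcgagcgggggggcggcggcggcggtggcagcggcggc
The capitals in Hdac5 are a MEF2-type match (CTA and TAG separated by 4 bases of any kind), CTATTTTTAG, at -20 to -11 from the start. Those in Hat1 are an E-box, CACGTG, at -181 to -176. The Ncoa1 stretch held none of the motifs searched, and 85.6% of its bases were G or C, against 60.8% in Hdac5, 67.6% in Hat1 and a median of 52.4% over all windows.

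Of the 46 genes, 37 matched a promoter window, which spans 250 bases before to 50 after the start. The Stat6-type motif lay in the windows of 2 of these 37 genes, Hdac4 and Sirt6, neither of them called, against 8.01% of all 27025 genes with a window. The MEF2-type motif lay in 3 (Hdac2, Hdac5 and Hdac9) against 4.23%, and the E-box lay in 4 (Kat5, Hat1, Hdac5 and Sirt1) against 8.09%. The E-box of Hdac5 does not lie within the 250 bases printed above. All 3 motifs read the same on both strands. The motifs other than the Stat6 type were added after the values of the genes were seen, and a match describes the letters of the window.

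Loss of Trim24 without IL-4 was accompanied by no called difference in the family: 0 of the 46 were called in either direction, against 0.781% higher and 0.672% lower of 15623 genes, and the same counts without removal of the trend stood against 0.762% and 0.736%. Baz2a (log2 ratio, knockout over wild-type, 0.19 ± 0.06) and Smarca4 (-0.13 ± 0.04) passed an adjusted p under 0.05 at smaller folds. That is 2 of the 46 against 5.97% of all genes, and 5 passed an unadjusted p under 0.05 in the exact binomial test, against 15.1%. The log2 ratios, knockout over wild-type, lay between -0.24 and 0.22 with a median of 0.02. That of Crebbp was -0.03 ± 0.09 and its interval of counting error ran from -0.20 to 0.14. For Ep300 it was 0.03 ± 0.05, with an interval from -0.06 to 0.12.

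With IL-4, 1 gene was called higher in the knockout and 0 lower, against 1.33% and 0.552% of 15573 genes. The gene was Ncoa1, with a log2 ratio of 0.65 ± 0.12 (adjusted p = 1.6e-07), which reflects the same low wild-type IL-4 library as its IL-4 ratio above, since the comparisons share that library. For Crebbp the ratio was 0.23 ± 0.11 (adjusted p = 0.14) after removal of the trend and 0.58 before, and for Ep300 0.12 ± 0.05 after (adjusted p = 0.15) and 0.52 before. Without removal, 2 genes were called higher, Baz2a (0.64, against 0.25 ± 0.06 after removal) beside Ncoa1, against a background of 2.93%. Hdac8 was called lower without removal, at -0.66, against 0.726%, and had -0.57 ± 0.22 after removal (adjusted p = 0.08). For Rcor1 the ratio of 0.56 ± 0.11 with IL-4 lay just under the threshold of 0.585 (1.48-fold, adjusted p = 6e-06). It was 1 of 7 genes that passed an adjusted p under 0.05 at any fold, against 10.9% of all genes. Baz2a and Smarca4 (0.18 ± 0.05) were also among the 7, Baz2a with the same sign as without IL-4 and Smarca4 with the opposite.

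**Figure D4:**
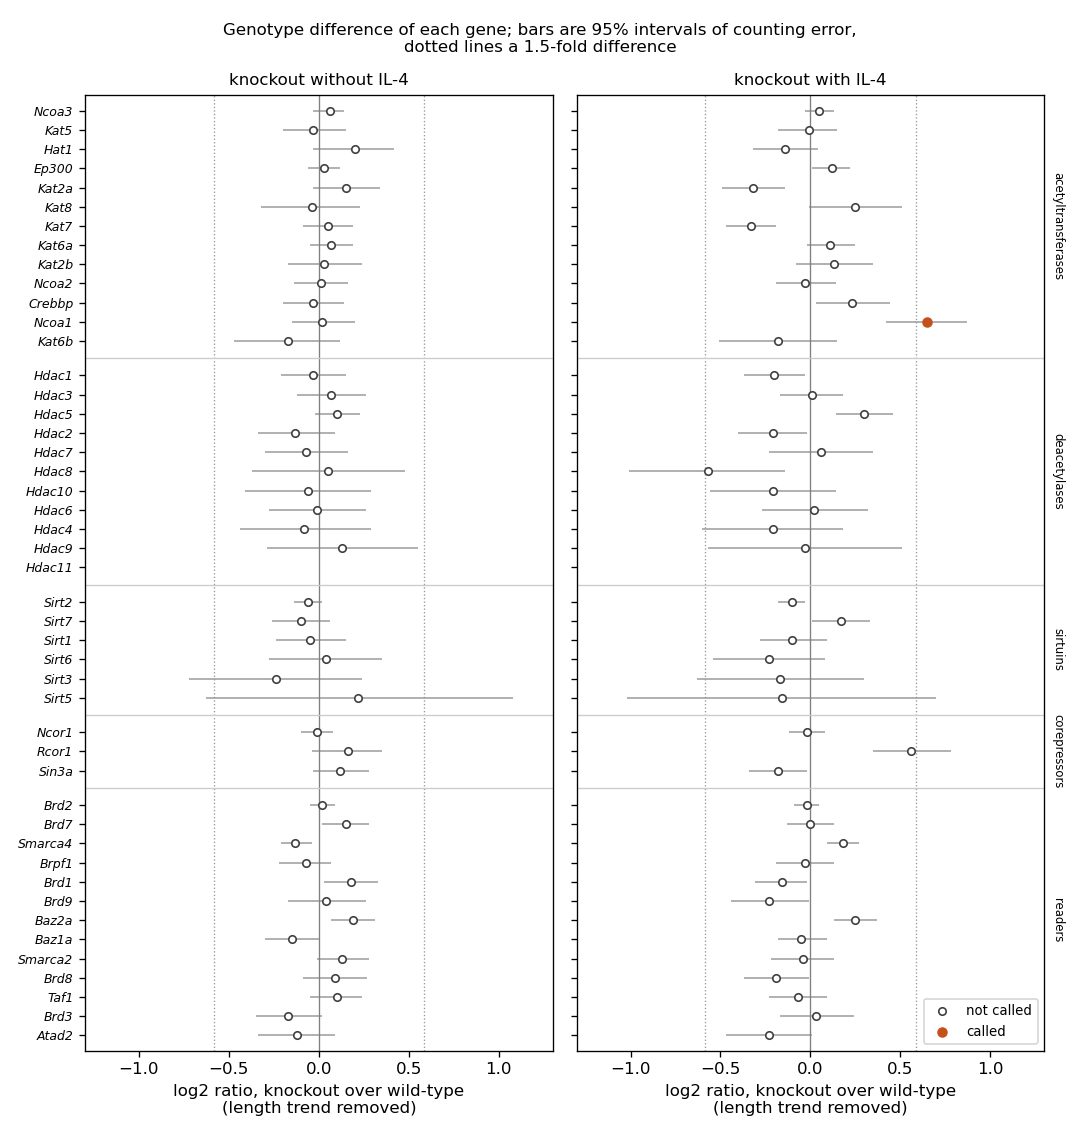
Log2 ratio, knockout over wild-type, with the length trend removed, for each gene without IL-4 (left) and with IL-4 (right); bars are 95% intervals of counting error, dotted lines mark a fold of 1.5, the filled point was called, and Hdac11 has no ratio. Without IL-4 every point lies between -0.24 and 0.22, and with IL-4 the points spread from -0.57 for Hdac8 to 0.65 for Ncoa1.

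Whether the response to IL-4 differed between genotypes was tested as a difference of the 2 log2 ratios, knockout minus wild-type. Here 1 gene was called higher and 0 lower, against 0.373% and 0.147% of 16371 genes, and without removal the same counts stood against 1.64% and 0.25%. Ncoa1 differed by 0.65 ± 0.15 (adjusted p = 0.0009, two-sided z test on log2 counts), which is the absence in the knockout of the low value seen in the wild-type. At an adjusted p under 0.05 without a minimum fold there were 4 further genes, named after their values were seen, which with Ncoa1 makes 5 of 46 against 3.15% of all genes. That share too is over all genes with a read, many of them scarcer than most of the 46. Smarca4, the ATPase of the BAF remodelling complex, had 33.4, 23.6, 31.2 and 32.4 FPKM and a difference of 0.30 ± 0.06. Kat2a, the GCN5 acetyltransferase of the SAGA complex, had 12.9, 17.7, 14.3 and 14.3 FPKM and a difference of -0.47 ± 0.13. The remaining genes were Kat7 with -0.38 ± 0.10 and Brd1, the scaffold of Kat7, with -0.35 ± 0.11. In each of these 4 genes the wild-type IL-4 library held the lowest or the highest of the values with the trend removed.

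An additive model of genotype and treatment, in which each genotype stands in as a repeat of the other with 1 residual degree of freedom, was fitted with edgeR to all genes. For IL-4 it called 6 of the 46 genes higher and 7 lower at an adjusted p under 0.05 with no minimum fold, against 17.9% and 15.3% of 11791 genes. Hdac5 (-0.69, adjusted p = 1.4e-16), Hdac7 (-0.55, adjusted p = 1.1e-05), Ncoa1 (-0.36) and Crebbp (-0.32) were among those lower, with Rcor1, Smarca2 and Hdac9. Hat1 (0.56, adjusted p = 9e-08), Ncoa3 (0.36) and Baz2a (0.28) were among those higher, with Kat2a, Hdac2 and Baz1a. The genes in these lists that stand without a value were named after their values were seen. Ep300 was not called (-0.12, adjusted p = 0.19), but was called lower when the curve was left out of the model. For genotype, 2 genes were called higher, Ncoa1 (0.31, adjusted p = 0.028) and Rcor1 (0.35, adjusted p = 0.0082), and 0 lower, against 3.38% and 1.91%. The model takes the genotype effect to be alike with and without IL-4. Between single libraries, the knockout over wild-type log2 ratio of Ncoa1 was 0.02 ± 0.09 without IL-4 and 0.65 ± 0.12 with it. That of Rcor1 was 0.16 ± 0.10 and 0.56 ± 0.11. Both genes had their lowest FPKM in the wild-type IL-4 library. Their calls in this model, for genotype and for IL-4, rest largely on that library. At an unadjusted p under 0.05 in this edgeR fit there were 4 genes higher and 0 lower for genotype. The share of all 11791 genes at that p is not given here, so this count is not read as a trait of the family. DESeq2 and limma called none in either direction for genotype.

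Of the 45 genes over the floor, 41 stayed under 1.5-fold in all 4 pairs. How many of all genes did so is not given here, so this count is not read as a trait of the family. Most genes averaging 1 FPKM or more were also not called with IL-4. These were 9194 of 10519 (wild-type pair) and 9339 of 10524 (knockout pair), beside 42 and 45 of the 46. The rule for named genes left 28 others, which by that rule hold none called in a pair or in the difference. Some of these 28 were called by the additive model. The 28 genes ran in level from 0.88 to 35.7 FPKM. With the trend removed, their log2 ratios with IL-4 spanned -0.50 to 0.46 in the wild-type and -0.41 to 0.44 in the knockout, and those for genotype spanned -0.24 to 0.18 without and -0.33 to 0.56 with IL-4.

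Further subunits of the same acetyltransferase, deacetylase and remodelling complexes were also read. Of 78 such genes, 75 averaged at least 0.5 FPKM, and with IL-4 2 of them were called higher and 3 lower in the wild-type, against 5.07% and 5.04% of all genes, and 2 higher and 1 lower in the knockout, against 5.09% and 3.94%. Without removal of the trend these counts were 0 higher and 10 lower in the wild-type (4.78% and 7.55% of all genes) and 1 higher and 2 lower in the knockout (5.1% and 4.02%). None was called for genotype with or without IL-4 or for the difference of the responses, whereas without removal 6 were called higher in the knockout with IL-4 (2.93% of all genes) and 3 higher for the difference (1.64%). Chd4, the ATPase of the NuRD deacetylase complex, was called higher with IL-4 in both genotypes after removal of the trend, with 93.8 and 122.2 FPKM in the untreated and IL-4 wild-type libraries and 96.4 and 153.7 FPKM in the knockout, which gave log2 ratios of 0.71 ± 0.02 and 0.75 ± 0.02. Before removal they were 0.38, not called, and 0.67, called. Supt3, a subunit of the SAGA complex around Kat2a, was called lower in both after removal, with 7.01 and 4.83 FPKM in the wild-type and 7.51 and 3.94 FPKM in the knockout, and ratios of -0.64 ± 0.21 and -0.95 ± 0.22. Before removal they were -0.53, not called, and -0.91, called. The share of all genes called alike in both genotypes is not given here. Over the 75 genes the IL-4 log2 ratio had a median of -0.02 (wild-type) and 0.01 (knockout).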

How the data were processed

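RNA from 4 macrophage libraries was sequenced, mapped by the authors with Bowtie to GRCm38 (mm10) and quantified with RSEM on RefSeq transcripts (versions not given in the sources used here). The deposited values are expected counts (estimated reads per gene, not whole in 22.2% to 22.8% of listed genes) and FPKM, the authors' counts divided by effective transcript length and library total. Strand use in counting was not given in the sources used here. RSEM divides reads shared between similar genes, and 8 of the 46 genes had an expected count that was not whole in a library. A whole count does not show that no read was shared. Genes not listed were set to 0.

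For each library, the deviation of log2(FPKM + 0.1) from its 4-library mean was smoothed against transcript length by lowess (fraction 0.3, on genes with 200 bases and 1 FPKM or more), and this curve was subtracted. Expected counts, rounded, were compared per pair of libraries by a two-sided exact binomial test whose expected share followed library totals and the curve, with Benjamini-Hochberg adjustment over all genes with a read. Log2 ratios understate changes of low genes because of the pseudocount. The difference of responses used a z test on log2(count + 0.5). Intervals and floors cover counting error only. An additive model was fitted with edgeR 4.0.16 (TMM, filterByExpr, quasi-likelihood test, curve as offset). The exact test, the z test and the edgeR fit were run on simulated counts that held counting error only. Their error rates under spread between mice or cultures were not checked. Python 3.11.15, statsmodels 0.14.6 and scipy 1.17.1 were used with R 4.3.3. DESeq2 1.42.0, limma 3.58.1, other curves, scalings, pseudocounts, folds, filters and assumed variation were alternatives. A curve over GC content and the pseudocounts for the difference were added after the data were seen.

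Named genes were Crebbp, Ep300, every member called in a pair or in the difference with or without the curve, and the highest and lowest member of each class. Members, lists and rules were chosen with earlier results of these data known. Promoter windows came from RefSeq for GRCm38.p6. Symbols and positions came from RefSeq by gene ID (16365 of 16403 matched).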

Additional observations from a re-analysis of the deposited data

Results flagged for a closer look

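The IL-4 response of Ncoa1 differed between the genotypes by 0.65 on the log2 scale (knockout minus wild-type, standard error of counting 0.15), the one gene of the 46 for which a test of the difference itself passed both thresholds. The value rests on 236 reads in the wild-type IL-4 library against 465 to 526 in the others, and each group is 1 library.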

How the results depend on the processing

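Each group is 1 library, so no replicate could be left out and every pairwise call measures counting error between 2 libraries. No paired analysis was possible because each group holds 1 library and the labels carry no replicate numbers. Of 630 recomputed log2 ratios of named genes, 587 stayed within their counting error and on their side of the thresholds, 30 moved, 4 passed and 9 lost the thresholds, and 0 of the called ratios changed sign. Some that were not called did change sign when the trend was kept, with IL-4 in the wild-type among others Ncoa3 (-0.06) and Baz2a (-0.21). Among those that lost them, Hdac7 in the wild-type was -0.58 under TMM scaling and -0.50 with a curve over length and GC content, and Hdac5 in the knockout was -0.53 with the latter.

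Calls of the 46 genes moved as follows. Without removal of the trend there were 5 lower with IL-4 in the wild-type, 2 higher and 1 lower for genotype with IL-4. The shares of all genes were 7.55%, 2.93% and 0.726% in that order. A pseudocount of 1 gave 1 lower with IL-4 in the wild-type and 0 lower in the knockout, 0 higher for genotype with IL-4 and 0 for the difference. The counts over all genes were 526, 448 and 136, and for the difference 15 higher and 3 lower. A fold above 2 gave 0 in every pair and in the difference. Over all 15593 genes tested in the wild-type pair, that fold left 410 higher and 308 lower. With biological variation assumed at a coefficient of 0.1, 0 were called in the knockout with IL-4 and 0 for genotype with IL-4, while Hat1, Hdac5 and Ncoa1 were called in the wild-type, and at 0.2 and 0.4 there were 0 in every pair. Calls over all genes fell too. In the wild-type pair 623 were higher and 502 lower at 0.1, 208 and 83 at 0.2, and 48 and 5 at 0.4. The length and GC curve gave 0 lower with IL-4 in the knockout, and a curve removed from the wild-type IL-4 library alone gave 0 for the difference, where Ncoa1 had 0.55. Over all genes, the former called 623 lower in that pair, and the latter 66 higher and 35 lower for the difference. In the additive model for IL-4, no curve gave 1 higher and 10 lower (Ep300, Ncoa2, Ncor1 and Atad2 gained, Rcor1 lost), DESeq2 1 higher (Ncoa3) and 1 lower (Hdac5), and limma 3 higher and 3 lower. For genotype, no curve gave 1 higher (Baz2a), all genes with a read 1 higher (Rcor1), and DESeq2 and limma 0. The shares over all genes under these alternative additive fits are not given here. The cause of these moves was not tested. Depth limits Hdac11, Sirt5, Sirt3, Hdac8, Hdac4 and Hdac9, which had at most 119 reads in a library.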
